A study of Mus musculus with 4 samples.

Results

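The hair follicle keratins and the keratin-associated proteins are the structural genes of hair: the keratins of the hair shaft, the inner root sheath and the companion layer, and the small proteins that fill the space between the keratin filaments. Members were taken by gene name alone, as the keratin genes Krt25 to Krt28, Krt31 to Krt36, Krt39, Krt40, Krt71 to Krt75 and Krt81 to Krt87 and every gene whose name starts with Krtap followed by a digit. Of the 54752 genes in the deposited tables, 81 were members, 24 of them keratin genes and 57 of them Krtap genes. An FPKM above 0.5 in at least 1 library was reached by 52 members, namely 20 keratin and 32 Krtap genes, and the other 29 did not reach it. FPKM, a count of fragments scaled to transcript length and library size, is a level per length, so that levels of different genes can be set side by side.

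RNA was sequenced from the epidermis of 4 mouse pups of strain C57BL/6 at postnatal day 0 (P0), the day of birth, to compare Skiv2l ctl pups with pups of the genotype Skiv2l fl/fl K14-Cre (labelled Skiv2lf/fl;K14-Cre), 2 of each. In the latter, the promoter of keratin 14, which is active in keratinocytes of the epidermis and of the hair follicle, drives the Cre recombinase that removes the floxed Skiv2l gene, the helicase of the SKI complex that feeds RNA to the cytoplasmic exosome. Skiv2l ctl stands for littermates that were Skiv2l fl/fl, Skiv2l fl/+ or Skiv2l fl/+ K14-Cre, and since the labels do not say which a given pup was, a control may carry Cre or 1 floxed allele. The pups are called controls 1 and 2 and knockouts 1 and 2 here, with the numbers of their labels, which name different animals and pair none of them.

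Skiv2l itself had an FPKM of 19.3 and 19.1 in the controls and of 10.8 and 8.55 in the knockouts, a log2 fold change of -0.92 (limma adjusted p = 0.00368). Of Krt5, Krt14, Krt1, Krt10, Flg and Lor, from a list of 9 epidermal markers, the lowest value was an FPKM of 444, for Lor in knockout 2. All 6 muscle markers, 4 of 5 endothelial markers and 6 of 8 dermal papilla markers stayed at or below 0.5. Only 3 of 8 dermal fibroblast markers did so, and that list summed to 61.6 and 69.3 in controls and to 22.0 and 25.1 in knockouts. The coverage in the files corresponds to 5.84 to 6.27 gigabases assigned to genes per library, and an FPKM of 0.5 to a mean depth of 2.92 to 3.14 reads per base, so that low members rest on few reads. Control 2 stood apart from control 1 for these genes: it was higher in 48 of the 52 members past the filter, with a median ratio of 2.34, whereas the median ratio over the 13609 genes tested was 1.01. Between knockout 2 and knockout 1 the median ratio over the same 52 members was 1.04.

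Hair keratins form in a follicle in concentric layers. Type I keratins pair with type II keratins into filaments, with some pairs in the inner root sheath that molds the hair, others in the companion layer that lets the sheath slide, and further pairs in the cortex and cuticle of the shaft. Keratin-associated proteins are made last, in the keratinizing shaft, and are sorted by composition into high glycine-tyrosine, high sulfur and ultra-high sulfur classes, of which the sulfur classes cross-link keratin through the disulfide bonds of their cysteines. At birth the follicles of mouse back skin are still growing down and the oldest of them are beginning to make a shaft.

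Of the genes past the filter, most shaft keratins and most keratin-associated proteins were lower in the knockouts than in controls, of the inner root sheath keratins Krt27 alone was called lower, and 4 genes, Krtap13, Krt75, Krt84 and Krt82, were higher. At an adjusted p under 0.05 (limma on log2(FPKM + 1), adjusted over 13609 protein-coding genes), 26 of the 52 members past the filter were lower and 4 were higher. Over all genes tested, 25.4% were lower and 8.99% were higher, so that the share of members called lower was above the background and the share called higher, 7.69%, was near it. The median log2 fold change was -0.79 over these members and -0.20 over all genes tested, and it was below 0 for 43 of the 52 members beside 71.9% of all genes. In bulk epidermis a smaller number of cells of a kind and less RNA per cell cannot be told apart.

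The filter bears on these counts, since 24 of the 52 members exceeded an FPKM of 0.5 in controls only and had to be lower in the knockouts to do so, and 1 member, Krtap13, exceeded it in knockouts only. Among the 45 members with a mean above 0.5 over the 4 libraries, 23 were called lower and 4 higher, beside 26.6% of all genes with such a mean called lower. Of all 81 members, 56 had both knockouts below both controls and 5 had both above. Among the 52 past the filter these counts were 41 and 4. Of all genes tested, which passed the same filter, 55.3% had both knockouts below both controls and 18.2% had both above. Permuting the genotypes of 4 pups exactly gives no p under 0.333 for any 1 gene, so each call rests on the spread that limma shares across genes.

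Which library is left out decides how many members are called lower. The count was 34 without control 1, 9 without control 2, 9 without knockout 1 and 6 without knockout 2, beside backgrounds of 5.92%, 5.95%, 23.0% and 18.4% of all genes tested. The count called higher was 3, 3, 3 and 4 in the same order, beside 3.65%, 3.98%, 8.42% and 8.27%. The lower calls of Krt32, Krtap1-5, Krtap10-10 and Krtap3-2 held in all 4 cases, as did the higher calls of Krtap13, Krt75 and Krt84, while Krt82 was called only without knockout 2. Krtap1-5 is named because it belongs to this count, after its values were seen. The 30 called members kept their direction in each case.

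Scaling moved the members as well as the background. With the libraries brought to equal medians (median scaling), the median log2 fold change over all genes tested went from -0.20 to -0.03 and that of the members from -0.79 to -0.71. Under quantile normalization they were -0.05 and -0.62. The members called under median scaling were 22 lower and 4 higher, beside 11.9% of all genes lower and 13.9% higher. Quantile normalization gave 15 lower and 4 higher, beside 14.1% and 12.4%, and a pseudocount of 0.1 gave 30 and 4, beside 25.6% and 9.08%.

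**Figure D1:**
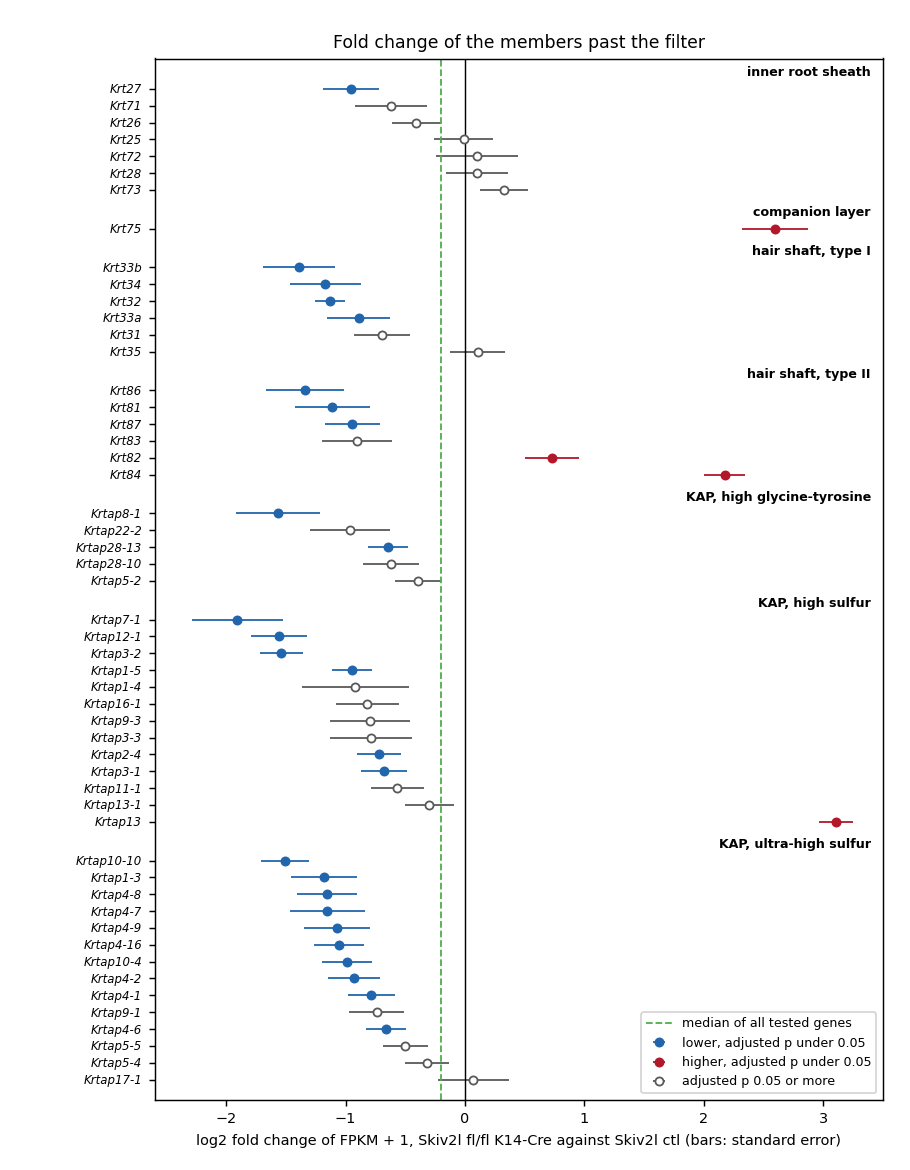
Each point is the log2 fold change of FPKM + 1 of a member past the filter, Skiv2l fl/fl K14-Cre against Skiv2l ctl (horizontal axis), with its standard error from limma as a bar, grouped by layer or class. Filled points passed an adjusted p of 0.05, and the dashed line is the median of all genes tested, -0.20. The 26 filled points on the left are mostly shaft keratins and keratin-associated proteins, and the 4 on the right are Krtap13, Krt75, Krt84 and Krt82.

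The stretch just upstream of the start of these genes is shown for members that were lower, for Krt25, which was not called, and for the 4 that were higher, because a TATA box is common among members. RefSeq promoters on GRCm38.p6 matched 67 of the 81 members by symbol. Those not matched were Krt35, Krt33a, Krt86, Krt81, Krt87, Krt83, Krt74, Krtap28-10, Krtap12-1, Krtap7-1, Krtap10-10, Krtap1-3, Krtap9-1 and Krtap19-9a. In the 250 bases upstream the letters TATAAA, searched on both strands, occurred in 54 of the 67 (80.6%), beside 12.4% of the 32851 promoters in the RefSeq table. They lay wholly between 40 and 16 bases upstream of the start in 40 of the 67 (59.7%), beside 2.48% of all promoters. The 100 bases upstream of Krt34, a shaft keratin, of Krtap3-2 and Krtap8-1, both keratin-associated, and of Krt25, an inner root sheath keratin, all on the minus strand, read 5′ to 3′ as follows, with TATAAA in capitals.
Krt34, chr11:100041555-100041654: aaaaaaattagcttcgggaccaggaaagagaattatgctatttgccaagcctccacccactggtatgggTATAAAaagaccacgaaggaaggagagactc
Krtap3-2, chr11:99556854-99556953: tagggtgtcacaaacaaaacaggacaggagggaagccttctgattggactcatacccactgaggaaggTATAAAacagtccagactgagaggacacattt
Krtap8-1, chr16:89487953-89488052: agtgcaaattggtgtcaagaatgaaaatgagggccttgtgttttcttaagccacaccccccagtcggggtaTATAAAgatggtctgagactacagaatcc
Krt25, chr11:99322952-99323051: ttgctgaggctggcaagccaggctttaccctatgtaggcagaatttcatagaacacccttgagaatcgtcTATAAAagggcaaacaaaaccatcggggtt

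Their TATAAA began 31, 32, 29 and 30 bases upstream of the start. Among members with a promoter, those letters lay between 40 and 16 bases upstream in 13 of the 18 called lower and 13 of the 18 not called, and in 0 of the 4 called higher. The type II keratins called lower, Krt81, Krt86 and Krt87, had no matched promoter. The 18 called lower therefore hold no type II keratin, whereas 3 of the 4 called higher are type II, so direction and keratin type cannot be told apart here. The 3 keratins called higher held ATAAAA there instead, beginning 32 bases upstream in Krt75 and Krt82 and 33 in Krt84. ATAAAA, which overlaps TATAAA where an A follows it, was looked for after these sequences had been seen, and it lay in that window in 34 of the 67 members (50.7%) and in 2.41% of all promoters. It was there in 11 of the 18 called lower and in 9 of the 18 not called as well. The 4 stretches, again all from the minus strand, have TATAAA in capitals for Krtap13, where it began 49 bases upstream, and ATAAAA, read on either strand, in capitals for the 3 keratins. The RefSeq start of Krt82 lies 8 bases inside the start in the files and that of Krtap13 7 bases inside.
Krtap13, chr16:88751629-88751728: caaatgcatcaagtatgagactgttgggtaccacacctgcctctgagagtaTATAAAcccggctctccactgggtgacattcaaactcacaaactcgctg
Krt75, chr15:101573905-101574004: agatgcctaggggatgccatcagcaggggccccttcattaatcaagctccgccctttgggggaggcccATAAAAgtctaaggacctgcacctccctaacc
Krt84, chr15:101532821-101532920: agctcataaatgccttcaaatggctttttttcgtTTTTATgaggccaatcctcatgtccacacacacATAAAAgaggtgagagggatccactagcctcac
Krt82, chr15:101550660-101550759: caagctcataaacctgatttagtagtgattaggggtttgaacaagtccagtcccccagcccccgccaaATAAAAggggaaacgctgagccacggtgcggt

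Other letters were rarer. CAATAAA, the core bound by the HOX13 group to which the hair regulator Hoxc13 belongs, was in 0 of the 67 members and in 4.2% of all promoters. The AP-1 site TGANTCA was in 10 of the 67 (14.9%), all of them Krtap genes, and in 6.75% of all promoters, and the LEF1/TCF site CTTTGAT was in 3 of the 67 and in 3.21% (250 bases upstream, both strands). A match describes the letters and no site was tested.

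The inner root sheath keratins Krt25, Krt26, Krt27 and Krt28 of type I and Krt71, Krt72 and Krt73 of type II passed the filter. Of these 7, 1 was lower, beside 25.4% of all genes tested. Krt71, which had the highest FPKM of all members in controls, had an FPKM of 9.25 in control 1, 19.7 in control 2, 8.29 in knockout 1 and 8.64 in knockout 2. Both knockouts lay below both controls, but knockout 2 and control 1 differed by less than the controls did from each other (log2 fold change -0.62, SE, the standard error, 0.30, limma adjusted p = 0.156). Krt27 (chromosome 11, 99345565 to 99351104 on GRCm38) had 5.86 and 10.4 in controls and 3.59 and 3.52 in knockouts. It fell by 0.96 on the log2 scale (SE 0.23, limma adjusted p = 0.0249). Median scaling gave -0.78 and the call was lost with it, as it was without control 2 (-0.59), knockout 1 (-0.97) or knockout 2 (-0.95).

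Krt25, the usual type I partner of Krt71, had an FPKM of 4.37 and 8.15 in controls and of 5.67 and 6.26 in knockouts. Both knockouts lay between the controls, and the log2 fold change was -0.01, turning to 0.17 under median scaling and 0.19 under quantile normalization. Krt28 and Krt73 overlapped between genotypes as well, with log2 fold changes of 0.10 and 0.33, and so did Krt72 with 0.10. Krt28 and Krt72 turned negative without control 1, at -0.26 and -0.27. Krt26, a late inner root sheath keratin, was between 0.497 and 1.08 in controls and between 0.247 and 0.424 in knockouts (limma adjusted p = 0.163). The last of the group, Krt74, annotated as a unitary pseudogene, was under 0.5 in every library. Summed over the 8 genes, the inner root sheath keratins had an FPKM of 23.4 and 46.3 in controls and of 24.3 and 25.4 in knockouts, so that both knockouts lay between the controls, close to control 1.

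Krt75, the type II keratin of the companion layer, was among the genes that were higher. It lies on chromosome 15 from 101563345 to 101573904 and had an FPKM of 0.903 in control 1, 2.02 in control 2, 16.8 in knockout 1 and 10.8 in knockout 2. Even the lower knockout stood above the higher control, and the ratio of the means was 9.44. The log2 fold change was 2.60 (SE 0.27, limma adjusted p = 0.00166). An annotated miRNA gene, Gm44460, lies on the other strand over an exon of Krt75 and was listed at 0 in all 4 libraries. As mean FPKM, a level per length, Krt75 was at 1.46 against 14.5 for Krt71 in controls and at 13.8 against 8.46 in knockouts.

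**Figure D2:**
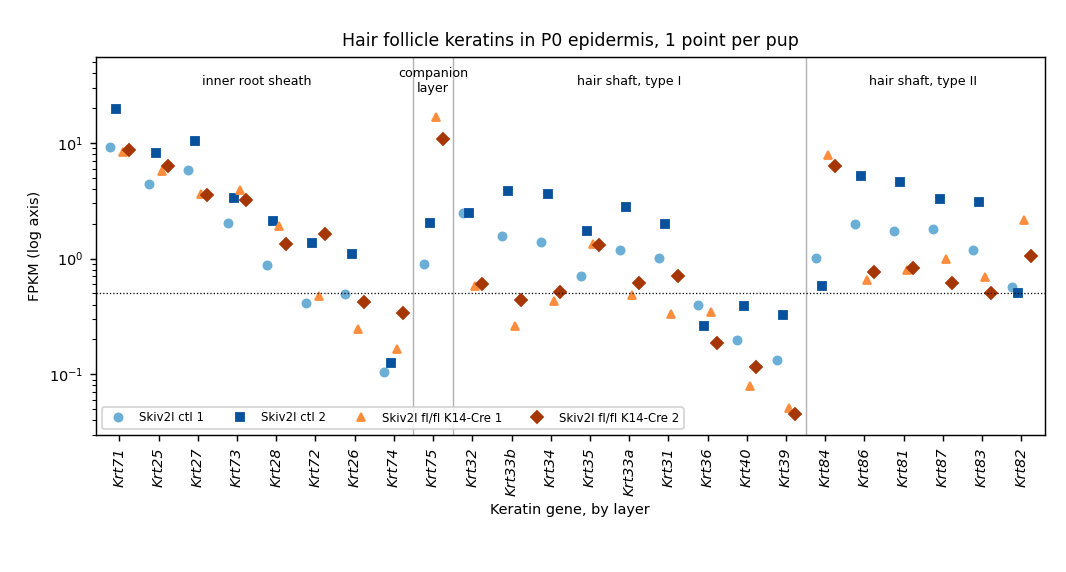
FPKM (vertical, log axis) of the 24 keratin members (horizontal, grouped by layer), with 1 point per pup and the filter of 0.5 as a dotted line. Krt75 and Krt84 in the knockouts, from 6.29 to 16.8, sit above their controls, and the shaft keratins Krt32, Krt33a, Krt33b, Krt34, Krt81, Krt86 and Krt87 sit below theirs.

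Of the type I shaft keratins, 6 of 9 passed the filter and 4 were lower, Krt32, Krt33a, Krt33b and Krt34, beside 25.4% of all genes tested. Krt32, a keratin of the shaft cuticle, had replicates close to each other, with an FPKM of 2.47 and 2.48 in controls and of 0.577 and 0.601 in knockouts. Its means differed 4.21-fold and the log2 fold change was -1.13 (SE 0.13, limma adjusted p = 0.00209). An antisense gene, Gm11571, shares exonic bases with Krt32 on the other strand, at an FPKM of 0.0897 to 0.215, and without a stated strand setting their reads cannot be told apart.

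The cortex keratins of the same cluster on chromosome 11 fell with a wider spread between the controls. Krt33b had an FPKM of 1.56 and 3.87 in controls and of 0.261 and 0.441 in knockouts. The groups did not overlap, and the log2 fold change was -1.39 (SE 0.30, limma adjusted p = 0.0173). Krt34, at 100037347 to 100041554, had 1.39 and 3.59 in controls and 0.434 and 0.513 in knockouts (log2 fold change -1.17, SE 0.30, limma adjusted p = 0.0287). In Krt34 24.7% of all 75-base stretches of the transcript also occur in other genes, most often in Krt33a, so how reads were divided between these paralogs is uncertain. Krt33a, from 1.18 and 2.78 to 0.485 and 0.617, was called as well (limma adjusted p = 0.0443), though not under median scaling.

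The other type I shaft keratins were not called. Krt31 had an FPKM of 1.0 and 1.98 in controls and of 0.334 and 0.704 in knockouts, all knockouts below all controls (log2 fold change -0.70, limma adjusted p = 0.0633). Krt35, which is made in the lowest part of the shaft before the other cortex keratins, had 0.704 and 1.73 in controls and 1.33 and 1.31 in knockouts, with both knockouts between the controls and a log2 fold change of 0.11, which was -0.24 without control 1. Krt36, Krt39 and Krt40 stayed under 0.5, with both knockouts below both controls for Krt39 and Krt40 but not for Krt36.

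No gene was found under the name Krt85, and the other 6 type II shaft keratins all passed the filter. They went in 2 directions, with 3 lower and 2 higher, beside 25.4% and 8.99% of all genes tested. Krt86, a cortex keratin on chromosome 15 at 101473478 to 101479986, had an FPKM of 1.98 in control 1, 5.2 in control 2, 0.647 in knockout 1 and 0.758 in knockout 2. The knockouts lay below both controls by a ratio of means of 5.11, and the log2 fold change was -1.34 (SE 0.33, limma adjusted p = 0.0251). Krt81, from 1.74 and 4.57 to 0.791 and 0.828, and Krt87, from 1.80 and 3.25 to 0.987 and 0.619, were lower too, with limma adjusted p-values of 0.0400 and 0.0247, the former lost under median scaling. Krt86 and Krt81 are near copies of each other, with 33.5% and 30.7% of their stretches shared. Krt83 had both knockouts below both controls and missed the threshold (log2 fold change -0.91, limma adjusted p = 0.0566).

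Krt84 and Krt82 went the other way. Krt84, a type II hair keratin also known from the filiform papillae of the tongue, lies on chromosome 15 at 101525026 to 101532820 and had an FPKM of 1.01 and 0.579 in controls and of 7.88 and 6.29 in knockouts. The ratio of the means was 8.91 and the log2 fold change 2.17 (SE 0.17, limma adjusted p = 0.000674), and no stretch of its transcript was shared. Krt82, a keratin of the shaft cuticle, had 0.563 and 0.505 in controls and 2.16 and 1.04 in knockouts. The groups did not overlap, but the log2 fold change of 0.73 was close to the threshold (SE 0.22, limma adjusted p = 0.0494). Krt84, Krt82 and Krt75 follow each other in this order among the 11 members on chromosome 15, where 3 other members were lower.

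The summed FPKM of the type II shaft keratins, 8.29 and 17.2 in controls and 13.2 and 10.04 in knockouts, overlapped between genotypes, and Krt84 alone made up 7.88 and 6.29 of the latter. The type I shaft keratins summed to 9.04 and 17.4 in controls and to 3.9 and 4.54 in knockouts, a ratio of means of 3.14.

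Of the keratin-associated proteins, 32 of 57 passed the filter, 18 were lower and 1 was higher, beside 25.4% and 8.99% of all genes tested. Both knockouts lay below both controls for 42 of the 57, and for 29 of the 32 past the filter beside 55.3% of all genes tested. Besides Krtap13, only Krtap8-1, Krtap12-1, Krtap7-1, Krtap3-2, Krtap1-4, Krtap9-3, Krtap11-1, Krtap10-10 and Krtap17-1 exceeded an FPKM of 0.5 in a knockout. The other Krtap genes past the filter exceeded it in controls only, as did 796 of the 13609 genes tested. The filter therefore bears on these counts more than on the background. At 0 in every library were 4 Krtap genes, and 10 others were at 0 in both knockouts only. Their composition was read from the codons of the annotated coding sequence. By that rule 19 were high glycine-tyrosine (glycine and tyrosine at least 35% of codons), 17 ultra-high sulfur (cysteine at least 30%), 20 high sulfur (the rest), and 1 pseudogene, Krtap19-9a, was left unclassified. The glycine-tyrosine limit was applied first. Krtap28-10, Krtap28-13, Krtap5-2 and Krtap5-3 were therefore counted there, although their cysteine codons (42.9%, 42.8%, 34.6% and 35.1%) also met the cysteine limit.

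In the ultra-high sulfur class 10 of the 14 past the filter were lower and none was higher. Over all genes tested these shares were 25.4% and 8.99%. In this class only Krtap10-10 and Krtap17-1 passed the filter in a knockout. The others passed it in controls only, as 796 of the 13609 genes tested did, and so had to be lower in the knockouts. The 25.4% is therefore not a like background for this class. Lower were 2 of 5 for high glycine-tyrosine, Krtap8-1 and Krtap28-13, and 6 of 13 for high sulfur. Of those 5, Krtap28-10, Krtap28-13 and Krtap5-2 also met the cysteine limit, so the counts do not separate cysteine-rich genes from the others. No test compared the classes, and their order was not stable, with 1 ultra-high sulfur against 4 high sulfur genes lower without knockout 2, and 3 against 3 without knockout 1 or without control 2. The ultra-high sulfur class summed to an FPKM of 17.9 and 29.4 in controls and of 5.61 and 5.25 in knockouts. Krtap10-10 (chromosome 10, 77835947 to 77837252), with 30.4% cysteine codons, led it with 7.59 in control 1, 5.0 in control 2, 1.76 in knockout 1 and 1.31 in knockout 2. Here control 1 and not control 2 was the higher, and both knockouts lay below both controls (log2 fold change -1.51, SE 0.20, limma adjusted p = 0.00342). It shares 41.2% of its stretches with other genes and overlaps an exon of Gm2696 on the same strand, so its own share of the reads is uncertain.

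The Krtap4 genes on chromosome 11 are the largest ultra-high sulfur family here. Krtap4-9 had an FPKM of 1.02 and 2.56 in controls and of 0.192 and 0.359 in knockouts (log2 fold change -1.07, SE 0.28, limma adjusted p = 0.0291). Krtap4-7 had 0.819 and 2.58 in controls and 0.0694 and 0.230 in knockouts (log2 fold change -1.15, SE 0.32, limma adjusted p = 0.0353). Krtap1-3 went from 1.15 and 2.89 to 0.284 and 0.266 and Krtap10-4 from 1.33 and 2.37 to 0.485 and 0.338, and both were lower (limma adjusted p of 0.0223 and 0.0155). In none of these genes did the genotypes overlap.

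Krtap17-1, an ultra-high sulfur protein of the shaft cuticle, was among the more abundant of them. It had an FPKM of 0.914 and 2.69 in controls and of 1.83 and 1.74 in knockouts, with both knockouts between the controls. Its log2 fold change of 0.07 turned to -0.41 without control 1 (limma adjusted p = 0.873 with all libraries). The difference between Krtap17-1 and the other members was not tested.

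In the high glycine-tyrosine class 14 of 19 genes, among them its Krtap6 and Krtap19 genes, stayed under the filter, and the class summed to 5.62 and 11.8 in controls and to 1.37 and 1.20 in knockouts. Krtap8-1 (chromosome 16, 89487379 to 89487952) had an FPKM of 1.82 and 5.11 in controls and of 0.556 and 0.264 in knockouts. The groups did not overlap, and the log2 fold change was -1.57 (SE 0.35, limma adjusted p = 0.0195). Krtap22-2 had 0.688 and 2.57 in controls and 0.279 and 0.238 in knockouts and was not called (limma adjusted p = 0.0707).

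Krtap7-1, which is usually counted with the glycine-tyrosine proteins but had 29.9% such codons and so fell into the high sulfur class of the rule used here, had the lowest log2 fold change of the members on the FPKM + 1 scale, though not with a pseudocount of 0.1, where Krtap3-2 was lower (-3.00 against -2.96) and so was Krtap4-2 (-3.13), named after its values were seen. Krtap7-1 had an FPKM of 2.65 in control 1, 7.68 in control 2, 0.399 in knockout 1 and 0.608 in knockout 2. The means differed 10.3-fold (log2 fold change -1.91, SE 0.38, limma adjusted p = 0.0135), and none of its stretches was shared.

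Krtap12-1 on chromosome 10 had 5.62 and 6.21 in controls and 2.0 and 0.843 in knockouts. The controls were close to each other, and the log2 fold change was -1.56 (SE 0.23, limma adjusted p = 0.00513). Krtap3-2, whose promoter is printed above, had 2.66 and 2.86 in controls and 0.50 and 0.113 in knockouts (log2 fold change -1.54, SE 0.18, limma adjusted p = 0.00233), with 27.1% of its stretches shared, mostly with Krtap3-3. Krtap1-4, Krtap9-3 and Krtap11-1 had both knockouts below both controls and adjusted p-values from limma of 0.155, 0.113 and 0.0904.

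Krtap13, also high sulfur by the rule, with 12.7% cysteine codons, was near 0 in controls and had the largest rise of the members called. It lies on chromosome 16 at 88750744 to 88751635, within a cluster of 24 Krtap genes, and had an FPKM of 0.122 in control 1, 0 in control 2, 7.54 in knockout 1 and 8.83 in knockout 2. The log2 fold change on the FPKM + 1 scale was 3.11 (SE 0.14, limma adjusted p = 0.000108). Krtap13 shares 19.4% of its stretches with other genes, most often with the nearby 2310057N15Rik, so its own share of the reads is uncertain. The neighbour Krtap13-1 had 0.447 and 1.04 in controls and 0.496 and 0.302 in knockouts and was not called, and it is named as the neighbour, after its values were seen. The high sulfur genes summed to 18.1 and 35 in controls and to 13.7 in each knockout, but without Krtap13 to 6.15 and 4.87 in the knockouts.

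**Figure D3:**
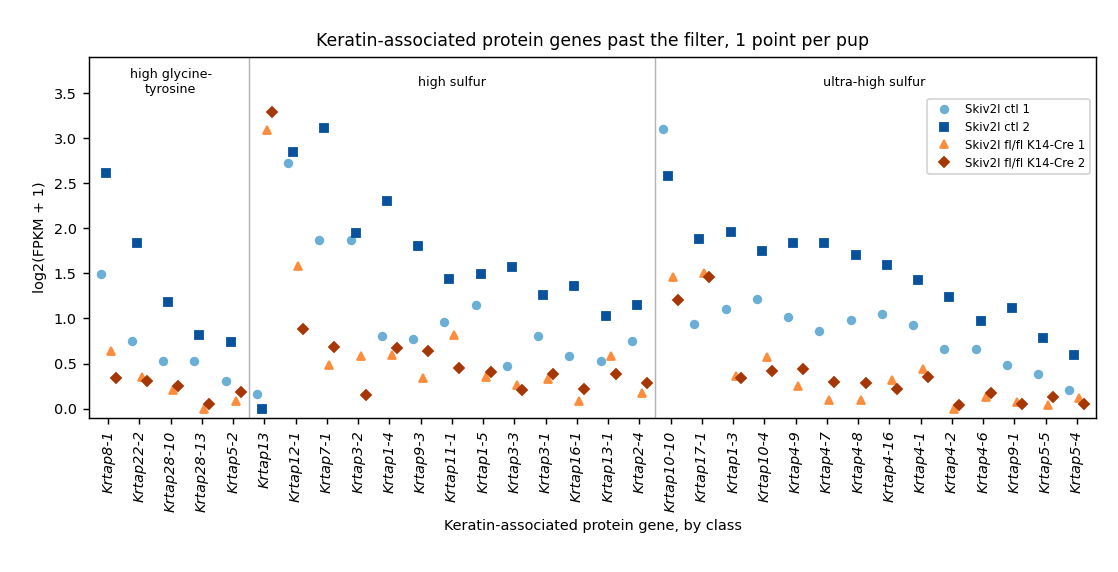
log2(FPKM + 1) (vertical) of the 32 Krtap genes past the filter (horizontal, grouped by class), with 1 point per pup. The knockouts lie below both controls for 29 of them, above both for Krtap13, and overlap them for Krtap17-1 and Krtap13-1.

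The 4 members that were higher made up 3.12% and 1.95% of the summed FPKM of all members in controls 1 and 2 and 43.6% and 38% in knockouts 1 and 2. The total over the 81 members was 83.2 and 159 in controls and 78.7 and 70.9 in knockouts. The keratin-associated proteins together went from 41.6 and 76.2 to 20.7 and 20.1, and the keratins from 41.6 and 82.9 to 58.1 and 50.7.

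**Figure D4:**
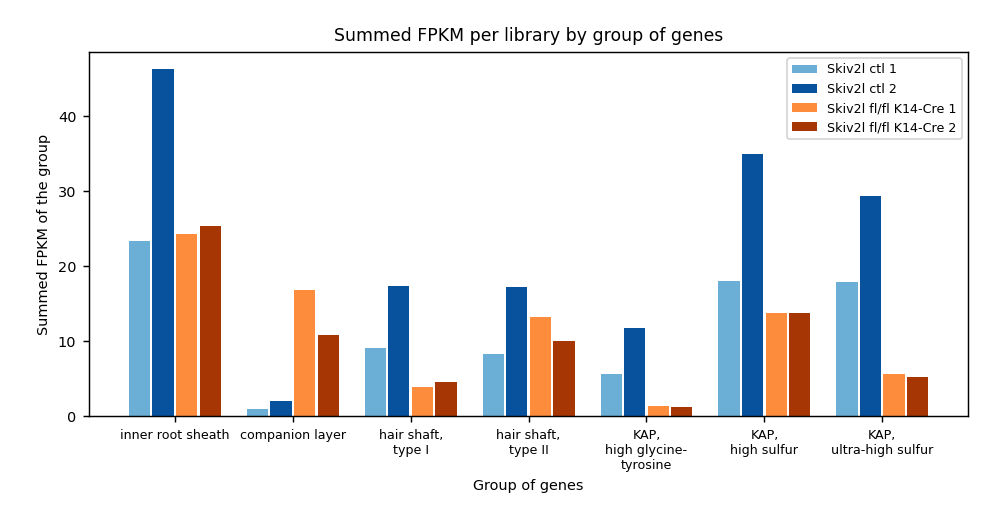
Summed FPKM (vertical, from 0) of each layer or class of members (horizontal) in each library, with 1 bar per pup and no error bars. Control 2 is above control 1 in every group, the knockouts are lowest for the type I shaft keratins and the 3 classes of keratin-associated proteins, and only the companion layer keratin is higher in both knockouts.

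By position, 36 members formed a cluster on chromosome 11 (99315516 to 100105626, with type I keratins and Krtap genes), 24 Krtap genes one on chromosome 16 (88610705 to 89571183) and 11 type II keratins one on chromosome 15 (101431038 to 101802346). In the chromosome 11 cluster 17 of the 28 members past the filter were lower and none was higher, with a median log2 fold change of -0.86. In the chromosome 15 cluster 3 of 10 were lower and 3 were higher. All 3 members on chromosome 10 were lower, and of the 24 on chromosome 16, 6 passed the filter, with 2 lower and 1 higher. On chromosome 7, 0 of the 3 Krtap5 genes past the filter were called. Over all genes tested, 25.4% were lower and 8.99% higher, so that the shares lower on chromosome 15 (30%) and chromosome 16 (33.3%) were near the background. The shares higher there were 30% and 16.7%. Under median scaling chromosome 15 had 2 of 10 lower and 3 higher, and chromosome 16 had 2 of 6 lower and 1 higher. Beside these, 11.9% of all genes were lower and 13.9% higher under that scaling.

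Proteins that work with the keratins were taken from a list of 12, of which 11 passed the filter, 6 were lower and 2 higher, beside 25.4% and 8.99% of all genes tested. Under median scaling 5 were lower and 2 higher, beside 11.9% and 13.9%. Tchh, trichohyalin of the inner root sheath and medulla, had an FPKM of 10.4 and 13.3 in controls and of 4.84 and 4.88 in knockouts (log2 fold change -1.12, limma adjusted p = 0.00252). Padi1, which turns arginine of such proteins into citrulline, had 6.30 and 6.96 in controls and 2.46 and 1.14 in knockouts (log2 fold change -1.49, limma adjusted p = 0.00564). The others that were lower were Mt4 (-1.29), S100a3 of the cuticle (-0.97, not called under median scaling), Crym (-0.69) and Liph, a lipase whose product signals to follicle keratinocytes (-0.61). Tgm3, a transglutaminase that cross-links hair and envelope proteins, rose from 53.1 and 54.9 to 93.6 and 71.2 (log2 fold change 0.59), and Hephl1, a ferroxidase, from 5.79 and 7.50 to 10.5 and 10.9 (0.62).

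Of 26 regulators of the follicle on a list, 24 passed the filter, 12 were lower and 2 higher, beside 25.4% and 8.99% of all genes tested, so that the share called higher, 8.33%, was near the background. Under median scaling 9 were lower and 3 higher, beside 11.9% and 13.9%. Hoxc13, the homeodomain factor known to act on hair keratin promoters, had an FPKM of 3.17 and 4.03 in controls and of 2.33 and 2.16 in knockouts, a small fall that passed the threshold (log2 fold change -0.50, limma adjusted p = 0.0385) and was lost under median scaling (-0.34, limma adjusted p = 0.117). Foxn1, a further regulator of hair keratins, had 9.53 and 8.74 in controls and 8.54 and 9.81 in knockouts, with overlapping genotypes. On the FPKM + 1 scale the largest falls were of Shh, the hedgehog ligand of the growing follicle, from 11.7 and 12.6 to 2.39 and 2.82 (log2 fold change -1.87, limma adjusted p = 0.000319), and of Edar, the ectodysplasin receptor, from 15 and 17.6 to 3.99 and 3.91 (-1.8, limma adjusted p = 0.000339). Lef1, the Wnt effector, fell from 31.5 and 33.6 to 9.74 and 8.76 (-1.71). Dkk4, a Wnt inhibitor, fell from 2.83 and 2.32 to 0.254 and 0.0767 (-1.62), a larger ratio of means (15.6) than that of Shh (4.67). The hedgehog targets Ptch1 (-1.61) and Gli1 (-1.46) and Wnt10b, Gata3, Lhx2, Eda and Bmp2 were also lower, the calls of Eda and Bmp2 being lost under median scaling (limma adjusted p of 0.124 and 0.188), and Vdr (0.87) and Trps1 (0.56) were higher.

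**Figure D5:**
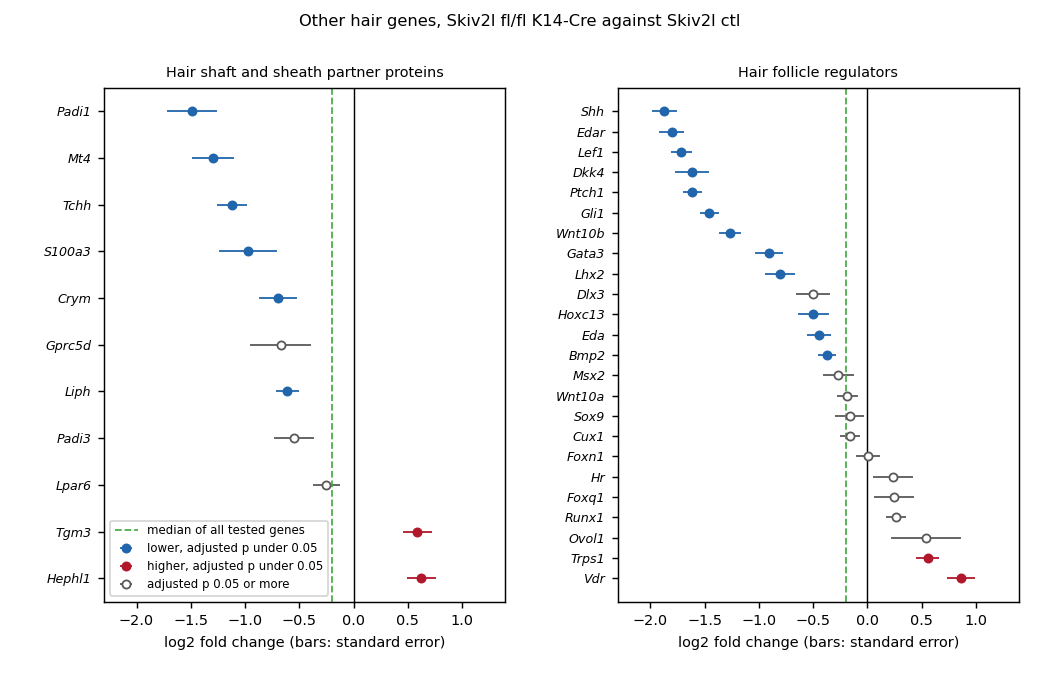
log2 fold change of FPKM + 1 (horizontal) with its standard error from limma for the tested partner proteins (left, 11 genes) and follicle regulators (right, 24 genes), Skiv2l fl/fl K14-Cre against Skiv2l ctl. Padi1 at -1.49 and Shh at -1.87 are the lowest in their panels, and the dashed line is the median of all genes tested, -0.20.

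Over the 24 regulators the median ratio of control 2 to control 1 was 1.06. Markers of other cells that moved with the genotype are given here because bulk epidermis mixes them. Outer root sheath and follicle stem cell markers had 5 of 9 lower, led by Krt15 (462 and 428 in controls, 92.1 and 155 in knockouts), and 1 higher, Krt17 (498 and 519 to 1481 and 1301). Over all genes tested, 25.4% were lower and 8.99% higher. Under median scaling 3 of these 9 were lower and 1 higher, beside 11.9% and 13.9%. Which cells made these transcripts was not tested. Interfollicular epidermis markers had 2 of 9 lower and 1, Krt14, higher, near the shares over all genes, and 1 lower and 1 higher under median scaling. Their sum ranged from 30949 to 32106 in controls and from 27972 to 30879 in knockouts. Leukocyte markers summed to 27.8 and 33.5 in controls and to 14.9 and 13.6 in knockouts with 3 of 5 tested lower, and dermal fibroblast markers to 61.6 and 69.3 and to 22.0 and 25.1, most of it Dcn (57.0 and 62.7 in controls, 16.9 and 21.4 in knockouts).

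Melanocyte markers had 0 of 8 lower and 1, Tyrp1, higher, beside 25.4% and 8.99% of all genes tested. They summed to 65.4 and 72.6 in controls and to 68.0 and 82.6 in knockouts. Dermal papilla markers summed to 32.6 and 34.1 in controls and to 39.6 and 24.8 in knockouts, nearly all of it Prdm1, which keratinocytes also make, and the muscle and endothelial lists stayed below 1 in every library. The part of these lists in the values of the members was not tested.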

How the data were processed

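RNA-seq of P0 mouse epidermis was analysed as deposited, with 2 libraries of each genotype. The authors made FPKM values per gene with their institution's RNA-seq workflow on GRCm38. TPM values and the coverage signal (mean read depth per base) stand beside them in the deposited tables. The aligner, the counting tool and the strand setting were not given in the sources used here. No raw counts were used, so no count model was run.

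FPKM was summed per gene ID, and biotypes and coordinates came from GENCODE M21 (54723 of 54752 IDs matched). Protein-coding genes above an FPKM of 0.5 in at least 1 library (13609) were tested on log2(FPKM + 1), which understates the change of low genes, with limma 3.58.1 in R 4.3.3 (lmFit, eBayes with a trend, Benjamini-Hochberg adjustment over all of them, threshold 0.05). Other steps used Python 3.11.15, pandas 2.3.3 and numpy 2.4.6. The fit was checked on simulated data. A shared stretch is a 75-base piece of a transcript found in another gene's transcripts.

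The members and lists were chosen with earlier results of these data known. Genes named were every keratin member, among Krtap genes the 15 with the highest mean FPKM, the 5 largest falls and 5 largest rises among those called and all called higher, and from each list the 4 highest and those called. Alternatives were a pseudocount of 0.1, other filters, TPM, median scaling, quantile normalization, a replicate block, no trend, all annotated genes and leaving out each library. The codon-based classes, used in place of a protein table, the ATAAAA search, the subset by mean FPKM, the unnamed neighbours and the sums without each library were chosen after seeing the data. The labels name separate pups, and deviations of same-numbered pups had a correlation of -0.077 over 13609 genes.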

Additional observations from a re-analysis of the deposited data

How the results depend on the processing

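Of the 26 members called lower, 10 were called without a filter and 15 calls came from quantile normalization, and leaving out 1 library gave 6 (without knockout 2) to 34 (without control 1). By group without a filter, lower calls went from 1 to 0 for the inner root sheath, from 4 to 1 for type I shaft keratins, from 3 to 0 for type II, from 2 to 1 for high glycine-tyrosine and from 10 to 4 for ultra-high sulfur genes. Partner proteins called higher went from 2 to 0. With quantile normalization these groups had 0, 2, 2, 1 and 6 lower calls. Requiring an FPKM over 1 in 2 or more libraries gave 1 for high glycine-tyrosine and 5 for ultra-high sulfur genes, and median scaling gave 0 for the inner root sheath. The share of all genes called was not computed without a filter or with the stricter filter, so those counts have no background beside them. A stricter filter tests fewer genes, and for the other settings the cause was not tested. The median log2 fold change of -0.79 was -1.69 with a pseudocount of 0.1 and -1.29 on TPM.

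Leaving out 1 library gave 0 to 2 lower calls for the inner root sheath, 1 to 4 for type I and 0 to 4 for type II shaft keratins, 0 to 4 for high glycine-tyrosine, 3 to 9 for high sulfur and 1 to 11 for ultra-high sulfur genes. For partner proteins it gave 2 to 5 lower and 0 to 2 higher, and for regulators 7 to 11 lower and 0 to 3 higher. For lower calls the smallest counts came without control 2 or a knockout. Skiv2l ranged from -1.08 to -0.77 on the log2 scale and missed the threshold without control 1 or control 2 (limma adjusted p of 0.0562 and 0.0547). The ratio of the summed FPKM of members, controls over knockouts, was 1.62 and ranged from 1.11 (without control 2) to 2.13 (without control 1).

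Directions turned for 5 members that were not called. Krt25 was 0.17 with median scaling and 0.19 with quantile normalization and ranged from -0.40 to 0.37 over the libraries left out. In the same way Krt28 ranged from -0.26 to 0.47, Krt35 from -0.24 to 0.45, Krt72 from -0.31 to 0.52 and Krtap17-1 from -0.41 to 0.54, with the lowest value without control 1 for all of these but Krt72 (without knockout 2).

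With the replicate block, 34 members were lower and 4 higher, and the inner root sheath had 2 lower calls. The share of all genes called with the block was not computed. The numbers only name pups, so the block pairs nothing.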

Other observations

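Between the first and the last Krtap gene of each cluster lie 52 other protein-coding genes with no Krtap name, of which 45 have at least 15% cysteine or 35% glycine and tyrosine codons. Of all 52, 33 passed the filter, 16 were lower and 3 higher (limma adjusted p under 0.05), beside 25.4% and 8.99% of all genes tested. The 3 that were higher met neither limit of composition, and neither did 2310079G19Rik, which was lower. The filter bears on these counts, since 8 of the 16 exceeded an FPKM of 0.5 in controls only and all 3 that were higher in knockouts only. Their summed FPKM was 42.1 and 60.4 in controls and 24.4 and 21.2 in knockouts. They were looked at after the members' values were seen. 2310079G19Rik had an FPKM of 7.22 and 4.08 in controls and of 0.920 and 0.687 in knockouts, without overlap (log2 fold change -1.84, limma adjusted p = 0.0031).

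The 3 that were higher lie beside Krtap13 on chromosome 16. 2310034C09Rik (88758847 to 88759792) had an FPKM of 0 and 0.101 in controls and of 9.66 and 10.5 in knockouts (log2 fold change 3.4, SE 0.13, limma adjusted p = 5.3e-05). 2310057N15Rik, with which Krtap13 shares stretches, had 0.027 and 0 in controls and 0.955 and 0.721 in knockouts (log2 fold change 0.86, limma adjusted p = 0.00945). Gm5965 had 0 and 0.042 in controls and 0.708 and 0.632 in knockouts (log2 fold change 0.71, limma adjusted p = 0.0151), and 32.1% of its stretches are shared, most often with 2310057N15Rik. All 4 genes had both knockouts above both controls.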
